A study of Mus musculus with 8 samples.

Results

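The transcripts described are those of 10 genes best known from neurons, Tubb3, Dcx, Stmn2, Nefm, Nefl, Syt1, Snap25, Gria1, Reln and Astn1, in the choroid plexus of the mouse embryo. They were chosen as a list and found by symbol, and all 10 were present among the 23284 genes of the count table. The choroid plexus is the sheet of secretory epithelium, with a vascular stroma beneath it, that makes cerebrospinal fluid. RNA sequencing was carried out on 4 groups of 2 biological replicates each. They were hindbrain sorted cells, telencephalic sorted cells, hindbrain whole tissue and telencephalic whole tissue, all from stage E18.5. Hindbrain plexus came from the fourth ventricle and telencephalic plexus from the lateral ventricles. Sorted cells were epithelial cells separated by fluorescence on a Ttr::RFP signal, a red reporter of the transthyretin gene, from ICR (CD1) embryos. Whole tissue was unsorted plexus of CD1 embryos, with no reporter given in the labels. Hindbrain and telencephalic plexus were taken from the same brains, but sorted cells and whole tissue were not described as sharing brains. Effects of preparation and of animal therefore cannot be told apart.

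Choroid epithelial cells descend from the neural tube but are not neurons. In the developing brain, newborn neurons build a microtubule and neurofilament skeleton as they migrate and extend axons. They then assemble the vesicle release machinery and the receptors of the synapse. Reelin is a secreted protein that guides the layering of migrating neurons, and in the embryo it is made in large part by Cajal-Retzius cells at the brain surface, some of which arise near the plexus. In bulk tissue, fewer cells of a type and less RNA per cell cannot be told apart.

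Libraries held 8849053 to 31613434 counts, the smallest being telencephalic whole replicate 2. Levels are given as CPM, counts relative to library totals scaled by trimmed means (TMM), where 1 count was worth 0.0364 to 0.105 CPM. Ttr made up 15.7% to 23.6% of counts in every library, so the defining marker of the labelled tissue was abundant throughout. The ribosomal precursor Rn45s took 6.49% to 13.9% of counts in sorted cells and 4.07% to 4.4% in whole tissue. The summed level of 10 choroid epithelial markers was 169000 to 220000 CPM in hindbrain sorted cells and 147000 to 149000 CPM in hindbrain whole tissue. In the telencephalic plexus it was 266000 to 290000 CPM in sorted cells and 178000 to 193000 CPM in whole tissue. Most of each sum was Ttr, the gene of the sorting reporter. Ttr had 159000 and 211000 CPM in hindbrain sorted cells and 139000 and 141000 CPM in hindbrain whole tissue. With sorting, 4 of the 10 markers were called higher in the hindbrain and 5 in the telencephalic plexus, and the rest were not called. All 10 neuronal genes were among the 15698 tested. However, 5 of them (Stmn2, Gria1, Snap25, Tubb3 and Astn1) reached the abundance needed for testing, 0.489 CPM in both libraries of a group, in whole tissue alone. The filter thus favoured whole tissue for these 5. Nefl reached that abundance in each group but hindbrain sorted cells. Counts and medians over the 10 genes are therefore given as a description. With no filter, 9 of the 10 were called with sorting in the hindbrain plexus and 7 in the telencephalic plexus. The share of all genes called without the filter is not given here, so these counts are a description too.

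**Figure D1:**
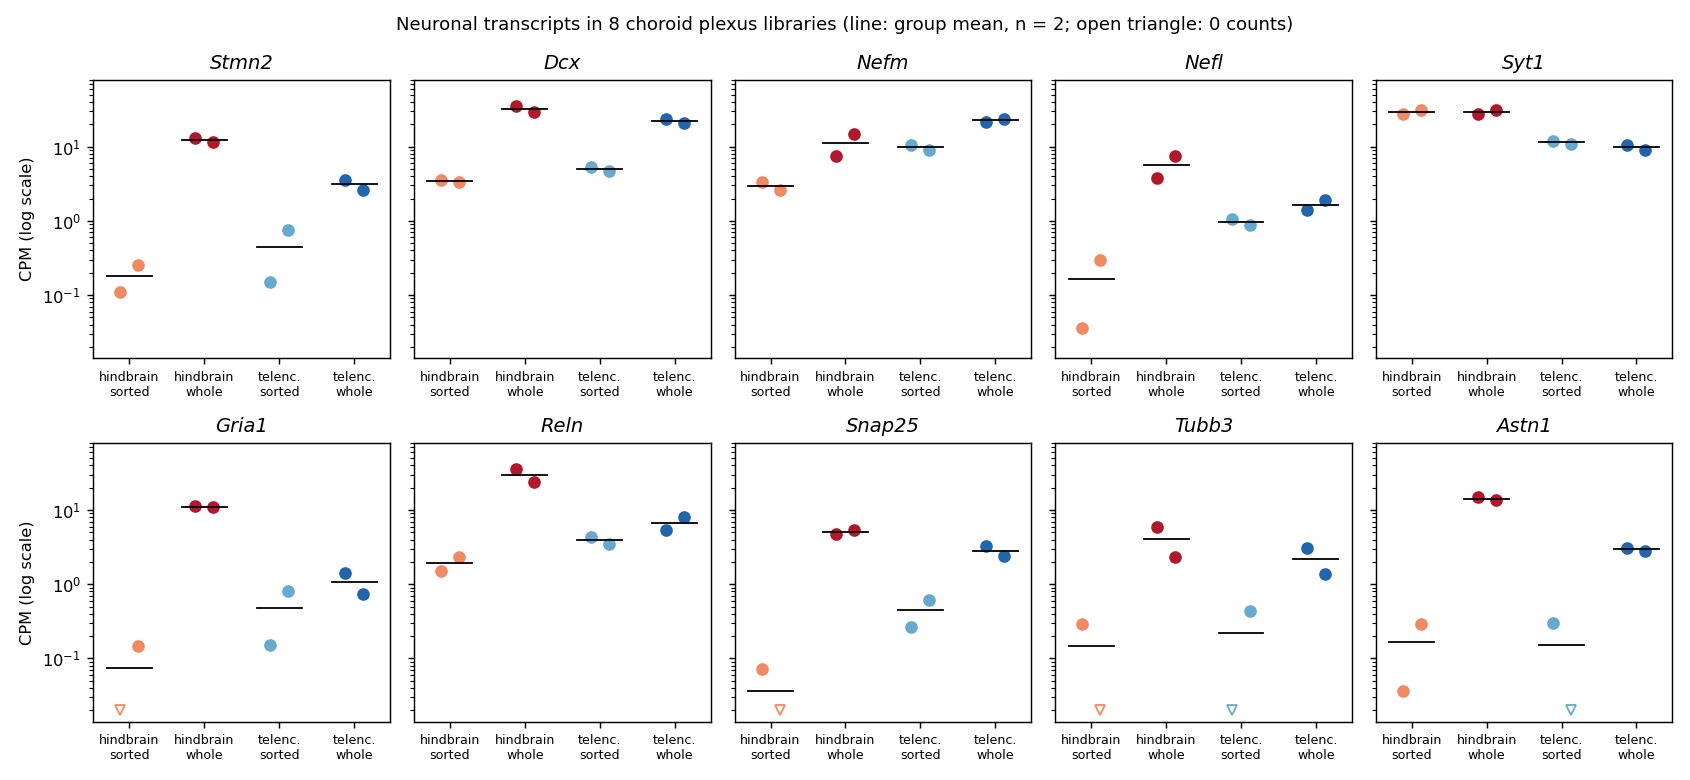
Levels of the 10 neuronal genes in each of the 8 libraries, in CPM on a log axis; each point is a library, each line the mean of 2, and open triangles are libraries with 0 counts. Syt1 lies at similar heights in sorted cells and whole tissue of the same region, while most other genes are lower in sorted cells.

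The first comparison asked how much of each transcript was left in epithelial cells sorted from the hindbrain plexus. Of the 10 genes, 9 fell relative to hindbrain whole tissue and Syt1 did not pass the test, where a call is a Benjamini-Hochberg adjusted p below 0.05 over all genes in edgeR's quasi-likelihood test. Of all genes tested, 22.1% were called in this comparison with 10.2% higher and 11.9% lower. Of the called genes 46.3% were higher, or 20.1% with library totals as the scale. The median log2 fold change of the 10 genes was -4.91, against 0.01 over all genes. Summed over the 10 genes, hindbrain sorted cells had 36.3 and 40.1 CPM, and hindbrain whole tissue had 151 to 160 CPM.

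Among the cytoskeletal genes, Stmn2, which encodes a microtubule-destabilising protein of growth cones, had 0.109 and 0.257 CPM in hindbrain sorted cells, against 13.1 and 11.7 CPM in hindbrain whole tissue. Dcx, encoding the microtubule-binding protein doublecortin of migrating neurons, had 3.56 and 3.3 CPM in hindbrain sorted cells, against 35.5 and 29 CPM in hindbrain whole tissue. The groups did not overlap for either gene, and both sorted libraries were far lower. Stmn2 changed by -6.04 ± 0.54 (log2 fold change ± SE, adjusted p = 1.2e-05) and was left at 1.47% of the whole-tissue level. Dcx changed by -3.23 ± 0.19 (adjusted p = 2.97e-07) and was left at 10.5%. Tubb3, the neuron-enriched beta-tubulin, had 0.291 and 0 CPM in hindbrain sorted cells, against 5.92 and 2.31 CPM in hindbrain whole tissue. The whole-tissue replicates of Tubb3 lay far apart, yet the sorted libraries were below both (-4.77 ± 1.03, adjusted p = 0.00634). The call for Tubb3 was lost without hindbrain whole replicate 1 (-3.93, adjusted p = 0.0575) and in DESeq2 (adjusted p = 0.0906). Without hindbrain sorted replicate 1 the remaining sorted library was at 0 and the fitted change was -9.39.

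The neurofilament genes encode the medium and light subunits that fill axons. Nefm had 3.31 and 2.6 CPM in hindbrain sorted cells, against 7.54 and 15 CPM in hindbrain whole tissue. Nefl had 0.0364 and 0.293 CPM in hindbrain sorted cells, against 3.83 and 7.55 CPM in hindbrain whole tissue. Neither gene's groups overlapped, and whole replicate 2 was the higher of its group for both. Nefm changed least among the 9 genes that fell, by -1.92 ± 0.29 (adjusted p = 0.00073), and Nefl by -5.06 ± 0.64 (adjusted p = 0.000183). In the GENCODE vM21 annotation the 2 genes share 1108 exonic bases on opposite strands, and the library protocol is not stated to keep strand, so the values of the single genes are uncertain to that extent.

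The synaptic genes split. Snap25, a membrane SNARE protein that drives vesicle fusion, had 0.0727 and 0 CPM in hindbrain sorted cells, against 4.72 and 5.43 CPM in hindbrain whole tissue. It rested on 2 counts in the sorted libraries together and 232 counts in whole tissue, a ratio of 0.00724 (95% counting interval 0.000872 to 0.0265), and changed by -6.9 ± 0.71 (adjusted p = 3.73e-05). Syt1, the vesicle calcium sensor synaptotagmin-1, had 27.3 and 30.8 CPM in hindbrain sorted cells, against 27.9 and 31.7 CPM in hindbrain whole tissue. The 2 groups of Syt1 overlapped and differed by -0.03 ± 0.16 (adjusted p = 0.9). The ratio of the pooled Syt1 levels was 0.981 (95% counting interval 0.912 to 1.06, exact Clopper-Pearson). These intervals cover counting error only.

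Gria1, a subunit of AMPA-type glutamate receptors, had 0 and 0.147 CPM in hindbrain sorted cells, against 11.3 and 11 CPM in hindbrain whole tissue. It showed the largest fitted change of the 10 genes, -7.14 ± 0.75 (adjusted p = 4.15e-05), on 4 counts in the sorted libraries together. Without hindbrain sorted replicate 2, which held all 4, the fitted change of Gria1 was -10.82. Reln had 1.53 and 2.35 CPM in hindbrain sorted cells, against 35.9 and 23.8 CPM in hindbrain whole tissue. Astn1, encoding the adhesion protein astrotactin-1 of neurons migrating along glia, had 0.0364 and 0.293 CPM in hindbrain sorted cells, against 14.8 and 13.5 CPM in hindbrain whole tissue. The sorted libraries lay below both whole-tissue libraries for all 3 genes. Reln changed by -3.94 ± 0.3 (adjusted p = 2.85e-06) and Astn1 by -6.38 ± 0.6 (adjusted p = 1.66e-05), which left 6.38% and 1.16% of their whole-tissue levels. The calls of the 8 genes other than Tubb3 that fell held under all 14 alternatives tried.

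**Figure D2:**
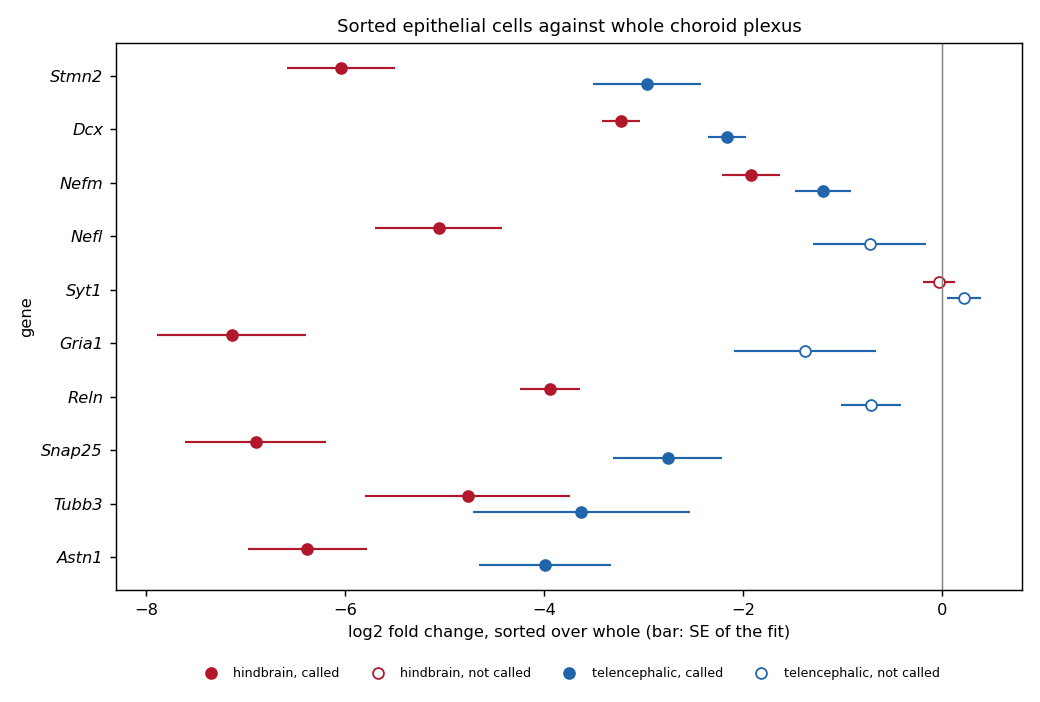
Log2 fold change of sorted cells over whole tissue for the 10 neuronal genes in the hindbrain and the telencephalic plexus, with the SE of the fit as bars; filled points were called. Syt1 sits near 0 in both regions (-0.03 and 0.22). The points of Gria1, Nefl, Snap25, Reln and Stmn2 are far apart between regions, and of these the differences of Gria1, Nefl and Reln were called.

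Promoter sequence is shown for Syt1, whose level in hindbrain sorted cells was close to that in whole tissue, and for Dcx and Reln, which fell there; these were picked after their values were seen. RefSeq windows of 300 bases (mouse GRCm38.p6) were found for 5 of the 10 genes: Dcx, Syt1, Reln, Tubb3 and Astn1. Dcx and Syt1 have 2 windows each, of which the first in the table is shown, and the 3 windows shown are on the minus strand. Capitals mark each CG dinucleotide and the first motif TATAAA, searched in these windows on the strand shown alone.
Syt1: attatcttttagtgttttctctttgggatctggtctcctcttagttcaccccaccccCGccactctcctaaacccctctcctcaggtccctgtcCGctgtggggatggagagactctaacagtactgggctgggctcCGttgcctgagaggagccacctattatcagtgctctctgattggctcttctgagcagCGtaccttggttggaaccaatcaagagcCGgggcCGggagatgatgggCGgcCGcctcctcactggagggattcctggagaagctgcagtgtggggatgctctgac
Dcx: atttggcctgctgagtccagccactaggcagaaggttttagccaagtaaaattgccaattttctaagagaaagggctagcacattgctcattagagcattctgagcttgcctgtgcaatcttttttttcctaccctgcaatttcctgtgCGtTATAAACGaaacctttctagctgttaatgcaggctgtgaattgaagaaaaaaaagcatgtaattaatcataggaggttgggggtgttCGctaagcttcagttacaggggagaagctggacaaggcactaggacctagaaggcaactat
Reln: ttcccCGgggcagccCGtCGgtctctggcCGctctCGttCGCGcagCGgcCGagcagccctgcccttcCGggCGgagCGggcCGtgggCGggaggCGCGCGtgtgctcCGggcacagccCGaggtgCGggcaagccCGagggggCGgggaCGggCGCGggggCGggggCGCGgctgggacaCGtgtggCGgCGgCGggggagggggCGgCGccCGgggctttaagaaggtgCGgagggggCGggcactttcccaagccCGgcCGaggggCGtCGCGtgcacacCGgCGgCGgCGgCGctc
The Syt1 window, at chr10:109010926-109011225, has 56.7% G and C and 8 CG dinucleotides and holds no TATAAA, while the second Syt1 window has 44% G and C and 6 CG dinucleotides. The Dcx window, at chrX:143933170-143933469, has 43% G and C and 3 CG dinucleotides, and holds a TATAAA 98 bases upstream of the annotated start. The Reln window, at chr5:22344656-22344955, has 80.7% G and C and 47 CG dinucleotides. Over 32851 such windows the medians were 52.7% G and C and 7 CG dinucleotides, and 13.6% held TATAAA on either strand. The 2 windows of Syt1 lie on opposite sides of these medians.

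The same question was asked of the telencephalic plexus, where sorted cells came from the lateral ventricles. Here 6 of the 10 genes fell relative to telencephalic whole tissue and 4 (Nefl, Syt1, Gria1 and Reln) did not pass the test. Of all genes tested, 22.4% were called with 9.88% higher and 12.5% lower, and the median of the 10 genes was -1.77 against 0.01 over all genes. Of the called genes 44.1% were higher, or 10.5% with library totals as the scale. Summed over the 10 genes, telencephalic sorted cells had 31.6 to 34.3 CPM and telencephalic whole tissue had 73.2 to 77.6 CPM. Sums in whole tissue were thus higher in the hindbrain than in the telencephalic plexus. Without Syt1 the sums of the other 9 genes were 8.95 and 9.24 CPM in hindbrain sorted cells and 22.3 and 20.6 CPM in telencephalic sorted cells. In whole tissue those sums were 133 and 119 CPM in the hindbrain and 66.9 and 64.3 CPM in the telencephalic plexus.

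Stmn2 had 0.151 and 0.744 CPM in telencephalic sorted cells, against 3.61 and 2.62 CPM in telencephalic whole tissue (-2.97 ± 0.54, adjusted p = 0.00196). Dcx had 5.29 and 4.65 CPM in telencephalic sorted cells, against 24 and 20.6 CPM in telencephalic whole tissue (-2.16 ± 0.19, adjusted p = 7.28e-06). Nefm had 10.7 and 8.99 CPM in telencephalic sorted cells, against 21.7 and 23.8 CPM in telencephalic whole tissue (-1.2 ± 0.28, adjusted p = 0.0083). All 3 were lower in both sorted libraries, and Nefm kept the largest share of the 6 that fell, 44.7%. Snap25, Tubb3 and Astn1 fell to 13.6%, 6.76% and 6.24% of the telencephalic whole-tissue level, on 17, 7 and 8 counts in the sorted libraries (adjusted p = 0.00365, 0.0313 and 0.00106). Tubb3 and Astn1 were each at 0 in a telencephalic sorted library, replicate 1 for Tubb3 and replicate 2 for Astn1. Without the library that held the counts, sorted replicate 2 for Tubb3 and sorted replicate 1 for Astn1, their fitted changes were -8.64 and -8.93.

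Of the 4 genes not called, Nefl had 1.06 and 0.868 CPM in telencephalic sorted cells, against 1.41 and 1.89 CPM in telencephalic whole tissue (-0.73 ± 0.57, adjusted p = 0.389). Reln had 4.35 and 3.53 CPM in telencephalic sorted cells, against 5.32 and 8.07 CPM in telencephalic whole tissue (-0.72 ± 0.3, adjusted p = 0.102). For both genes the sorted libraries were the lower ones without overlap, and neither difference passed the test. Gria1 had 0.151 and 0.806 CPM in telencephalic sorted cells, against 1.41 and 0.733 CPM in telencephalic whole tissue, with overlap (-1.38 ± 0.71, adjusted p = 0.186). Syt1 had 12 and 11 CPM in telencephalic sorted cells, against 10.7 and 8.91 CPM in telencephalic whole tissue. Both sorted libraries of Syt1 were slightly higher without passing the test (0.22 ± 0.17, adjusted p = 0.396; pooled ratio 1.16, 95% counting interval 0.995 to 1.35), and its sign turned to -0.1 with library totals as the scale.

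Some of these telencephalic calls rested on single libraries. Nefm lost its call without telencephalic whole replicate 2 (-1.14, adjusted p = 0.0641) or sorted replicate 2 (-1.09, adjusted p = 0.0658). Tubb3 lost it without telencephalic whole replicate 1 (-2.88, adjusted p = 0.243), whole replicate 2 (-4.05, adjusted p = 0.0598) or sorted replicate 1 (-2.38, adjusted p = 0.189), and in DESeq2 (adjusted p = 0.269). Gria1 was called as lower without telencephalic sorted replicate 2 (-2.84, adjusted p = 0.0448), and Reln with library totals as the scale (-1.05, adjusted p = 0.0156) or with no filter on low counts (adjusted p = 0.047).

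Whether the change with sorting differed between regions was tested as an interaction, the hindbrain log2 change minus the telencephalic one. It was below 0 for all 10 genes, and for 7756 of the 15698 genes tested. It passed the test for 3 of the 10, Reln, Gria1 and Nefl. Of all genes tested, 1.34% were called, with 1.1% above 0 and 0.242% below 0. Reln differed by -3.22 ± 0.42 (adjusted p = 0.00241), being left at 6.38% of the whole-tissue level in the hindbrain and 63.8% in the telencephalic plexus. Gria1 differed by -5.76 ± 1.12 (adjusted p = 0.0238), with 0.655% left in the hindbrain and 34.5% in the telencephalic plexus. Nefl differed by -4.33 ± 0.86 (adjusted p = 0.0282), with 2.96% left in the hindbrain and 62.3% in the telencephalic plexus. Gria1 reached the abundance needed for testing in whole tissue alone, and Nefl in each group but hindbrain sorted cells. The filter thus favoured low values of both in hindbrain sorted cells, and these calls are given as a description. Snap25 differed by -4.14 ± 1, a larger value than that of Reln, without passing the test (adjusted p = 0.0747). The difference for Syt1 was -0.26 ± 0.23 (adjusted p = 0.836), and for Nefm -0.72 with an adjusted p of 0.648.

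With brain as a replicate block, Stmn2 (-3.18, adjusted p = 0.02) and Dcx (-1.06, adjusted p = 0.0402) were called as well, making 5 genes; they gave -3.06 (adjusted p = 0.131) and -1.07 ± 0.26 (adjusted p = 0.0829) without the block. The call of Reln held under all 14 alternatives. Gria1 lost its call without either hindbrain whole replicate (adjusted p = 0.0636 and 0.059), either telencephalic whole replicate (adjusted p = 0.0759 and 0.126) or telencephalic sorted replicate 2 (-4.3, adjusted p = 0.268), and its value was -9.39 without hindbrain sorted replicate 2. Nefl lost it without hindbrain whole replicate 2 (adjusted p = 0.164), either telencephalic whole replicate (adjusted p = 0.173 and 0.128) or either telencephalic sorted replicate (adjusted p = 0.142 and 0.0647). Without hindbrain whole replicate 2, either telencephalic whole replicate or telencephalic sorted replicate 2, Reln was the 1 gene called.

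Hindbrain and telencephalic plexus were then compared within each preparation, starting with whole tissue. In hindbrain whole tissue 5 of the 10 genes were higher (Reln, Gria1, Astn1, Stmn2 and Syt1), Nefm was lower, and Dcx, Nefl, Snap25 and Tubb3 did not pass the test. Of all genes tested, 5.79% were called, with 3.34% higher and 2.45% lower. Of the called genes 57.6% were higher, or 70.7% with library totals as the scale. The median log2 fold change of the 10 genes was 1.7, against 0.01 over all genes.

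Reln averaged 29.9 ± 8.54 CPM in hindbrain whole tissue and 6.69 ± 1.94 CPM in telencephalic whole tissue (SD, n = 2 each), a change of 2.18 ± 0.28 (adjusted p = 0.000451). Gria1 averaged 11.1 ± 0.205 CPM in hindbrain whole tissue and 1.07 ± 0.476 CPM in telencephalic whole tissue (3.31 ± 0.57, adjusted p = 0.00356). Astn1 averaged 14.1 ± 0.916 CPM in hindbrain whole tissue and 2.97 ± 0.204 CPM in telencephalic whole tissue (2.24 ± 0.45, adjusted p = 0.00985). In each case both hindbrain libraries were above both telencephalic ones. Stmn2 averaged 12.4 ± 1.02 CPM in hindbrain whole tissue and 3.11 ± 0.698 CPM in telencephalic whole tissue (1.97 ± 0.41, adjusted p = 0.0124). Syt1 averaged 29.8 ± 2.7 CPM in hindbrain whole tissue and 9.8 ± 1.27 CPM in telencephalic whole tissue (1.59 ± 0.17, adjusted p = 0.000139). Nefm ran the other way, with 11.2 ± 5.25 CPM in hindbrain whole tissue and 22.7 ± 1.47 CPM in telencephalic whole tissue (-1.02 ± 0.27, adjusted p = 0.0475).

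Among the genes not called, Dcx averaged 32.3 ± 4.62 CPM in hindbrain whole tissue and 22.3 ± 2.39 CPM in telencephalic whole tissue (0.53 ± 0.17, adjusted p = 0.111). Nefl averaged 5.69 ± 2.63 CPM in hindbrain whole tissue and 1.65 ± 0.339 CPM in telencephalic whole tissue (1.8 ± 0.52, adjusted p = 0.0694), and was called with brain as a replicate block (1.72, adjusted p = 0.0371). Snap25 gave 0.83 ± 0.45 (adjusted p = 0.413). Tubb3 gave 0.86 ± 0.8 (adjusted p = 0.695), and its groups overlapped. Of the neurofilament pair, then, the medium subunit was lower in hindbrain whole tissue while the light subunit had the higher values there.

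The calls of Syt1 and Reln held under all 15 alternatives. Without any 1 of the 4 whole-tissue libraries, Stmn2 had adjusted p from 0.0711 to 0.175 and Astn1 from 0.0675 to 0.142, and Astn1 was not called in DESeq2 (adjusted p = 0.215). Gria1 lost its call without telencephalic whole replicate 1 (adjusted p = 0.0506) or 2 (adjusted p = 0.0759). Nefm lost it without hindbrain whole replicate 1 (-0.6, adjusted p = 0.28), either telencephalic whole replicate (adjusted p = 0.22 and 0.277) or either telencephalic sorted replicate (adjusted p = 0.0714 and 0.0694), and with library totals as the scale (-0.94, adjusted p = 0.0679); without hindbrain whole replicate 2 its value was -1.59. Leaving out either hindbrain sorted library brought a call for Nefl (adjusted p = 0.0131 and 0.0134). The count of called genes was 3 without hindbrain whole replicate 1 and 2 without either telencephalic whole replicate.

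**Figure D3:**
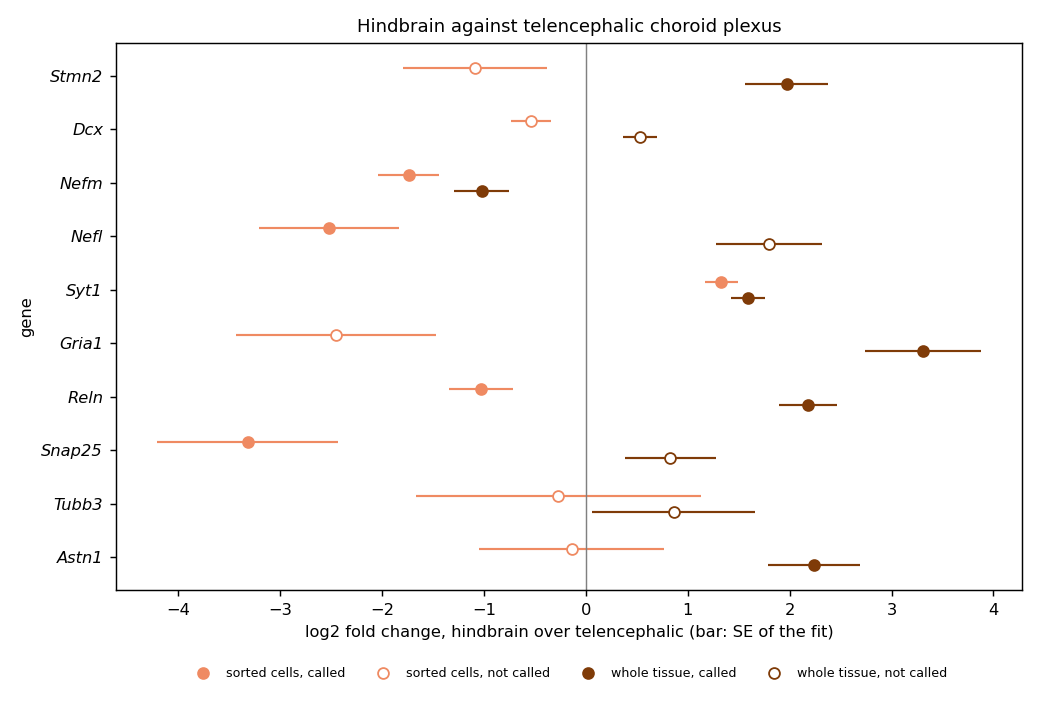
Log2 fold change of hindbrain over telencephalic plexus for the 10 neuronal genes in sorted cells and in whole tissue, with the SE of the fit as bars; filled points were called. Syt1 lies right of 0 in both preparations (1.33 and 1.59) and Nefm left of 0 in both (-1.74 and -1.02), while Reln lies on opposite sides (-1.03 and 2.18).

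In sorted cells the regional pattern was different. Syt1 was higher in hindbrain sorted cells, 4 genes (Nefm, Nefl, Reln and Snap25) were lower, and 5 did not pass the test. Of all genes tested, 15.2% were called, with 9.06% higher and 6.12% lower. Of the called genes 59.7% were higher, or 83.5% with library totals as the scale, and the median of the 10 genes was -1.06 against 0 over all genes. Syt1 averaged 29.1 ± 2.48 CPM in hindbrain sorted cells and 11.5 ± 0.74 CPM in telencephalic sorted cells (SD, n = 2 each; 1.33 ± 0.16, adjusted p = 0.000131). Nefm averaged 2.96 ± 0.498 CPM in hindbrain sorted cells and 9.84 ± 1.21 CPM in telencephalic sorted cells (-1.74 ± 0.3, adjusted p = 0.0017). The libraries of the 2 regions did not overlap for either gene, and both calls held under all 15 alternatives.

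Reln averaged 1.94 ± 0.58 CPM in hindbrain sorted cells and 3.94 ± 0.575 CPM in telencephalic sorted cells (-1.03 ± 0.31, adjusted p = 0.0407). Nefl averaged 0.165 ± 0.182 CPM in hindbrain sorted cells and 0.963 ± 0.135 CPM in telencephalic sorted cells (-2.52 ± 0.69, adjusted p = 0.0268). Snap25 had 2 counts in the hindbrain sorted libraries together and 17 counts in the telencephalic ones (-3.32 ± 0.89, adjusted p = 0.0249). These 3 had higher values in hindbrain whole tissue and lower ones in hindbrain sorted cells, and for Reln both differences were called. Dcx averaged 3.43 ± 0.185 CPM in hindbrain sorted cells and 4.97 ± 0.454 CPM in telencephalic sorted cells (-0.54 ± 0.2, adjusted p = 0.0909). Gria1 gave -2.45 ± 0.98 (adjusted p = 0.119) on 4 counts in hindbrain and 17 counts in telencephalic sorted cells, and was called with brain as a replicate block (-2.66, adjusted p = 0.0247).

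Stmn2 gave -1.09 ± 0.71 (adjusted p = 0.357) on 10 counts in hindbrain and 16 counts in telencephalic sorted cells, and the groups overlapped. Tubb3, with 8 and 7 counts, and Astn1, with 9 and 8 counts, also overlapped and were indistinguishable at this depth (adjusted p = 0.934 and 0.948). Nefl lost its call without hindbrain sorted replicate 1 (-1.71, adjusted p = 0.111) or telencephalic sorted replicate 1 (adjusted p = 0.15) or 2 (adjusted p = 0.0606), and Reln without the same 3 libraries (adjusted p = 0.183, 0.26 and 0.074) or with library totals as the scale (adjusted p = 0.0697). Snap25 lost its call without hindbrain sorted replicate 2 (-2.4, adjusted p = 0.0783) or telencephalic sorted replicate 2 (-2.68, adjusted p = 0.128). Gria1 was called without hindbrain sorted replicate 2 (-6.1, adjusted p = 0.0356) or telencephalic sorted replicate 1 (-3.36, adjusted p = 0.0464). The value of Nefl was -4.53 when hindbrain sorted replicate 2 was left out, and that of Snap25 was -6.08 when replicate 1 was. The count of called genes was 3 without hindbrain sorted replicate 1 and 2 without telencephalic sorted replicate 2.

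Across the 8 libraries, which form 4 groups, the log2 levels of the 10 genes were compared by Pearson correlation as a description. Among the 9 genes other than Syt1, the 36 pairs had correlations from 0.49 to 0.96, with a median of 0.87. Syt1 stood apart, with correlations of -0.67 to 0.19 with the other genes. These values share the difference between preparations and library depth. The genes closest to Stmn2 in pattern were Dpysl5 (r = 0.995), Ina (r = 0.991) and Slc43a1 (r = 0.99). Those closest to Dcx were Gria2 (r = 0.994), Akr1c14 (r = 0.992) and Slco2a1 (r = 0.991). Those closest to Syt1 were Hadhb (r = 0.992), Abca4 (r = 0.991) and Adamtsl3 (r = 0.99). For Reln and Gria1 the closest gene was in both cases Gdpd2 (r = 0.972 and 0.978), for Nefm it was Gatad1 (r = 0.99), for Nefl Lrrc8b (r = 0.975), for Snap25 Prkcb (r = 0.992), for Tubb3 Zfyve20 (r = 0.989) and for Astn1 Tubb5 (r = 0.99).

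Other neuronal genes were counted in 6 lists, of which 76 genes were abundant enough to test. With sorting, 56.6% of the 76 were called in the hindbrain plexus, against 22.1% of all genes, and 32.9% in the telencephalic plexus, against 22.4% of all genes. Some list genes, among them Ina and Elavl3, were abundant enough to test in whole tissue alone, so the filter favoured a fall with sorting. The lists were also chosen with earlier results known. These shares and the list counts below are therefore a description. In hindbrain sorted cells against hindbrain whole tissue, 13 of 15 cytoskeletal and RNA-binding genes fell and 2 were not called (median -3.2). Elavl3, a neuronal RNA-binding protein, had 0.0727 and 0.147 CPM in hindbrain sorted cells, against 9.31 and 4.15 CPM in hindbrain whole tissue (-5.87 ± 0.58, adjusted p = 2.67e-05). The neurofilament-like gene Ina had 0 counts in hindbrain sorted cells against 178 counts in whole tissue and was at least 70.6-fold lower, taking 3 counts over the group as the floor. The tubulin gene Tubb2b changed by -2.51 ± 0.29 (adjusted p = 0.000111). In the telencephalic plexus 7 of these 15 fell and 8 were not called (median -2.11), among them Gap43, a growth-cone protein, which had 0 counts in sorted cells and was at least 26.9-fold lower. The 7 became 3 without telencephalic whole replicate 1 and 4 without telencephalic sorted replicate 1.

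Presynaptic genes were mixed, as Snap25 and Syt1 were. In the hindbrain plexus 8 of 17 fell, 2 rose and 7 were not called (median -1.04). The share that rose was near the 10.2% of all genes called higher in that comparison. Syp, encoding the vesicle protein synaptophysin, had 0.655 and 0.66 CPM in hindbrain sorted cells, against 5.08 and 4.81 CPM in hindbrain whole tissue (-2.9 ± 0.48, adjusted p = 0.00127). Sv2b changed by -1.42 ± 0.18 (adjusted p = 0.000183) and Syt4, another synaptotagmin, by -3.8 ± 0.7 (adjusted p = 0.00248). The 10 calls became 5 without hindbrain whole replicate 1 or 2 and 6 without telencephalic whole replicate 1 or 2. In the telencephalic plexus 4 of 17 fell, 2 rose and 11 were not called (median -0.47). The share that rose was near the 9.88% of all genes called higher there. The genes that rose there included Snap91, a clathrin adaptor of synaptic vesicles, which had 287 and 298 CPM in telencephalic sorted cells, against 168 and 193 CPM in telencephalic whole tissue (0.7 ± 0.14, adjusted p = 0.00345). They also included Pclo, an active-zone scaffold, at 0.71 ± 0.17 (adjusted p = 0.0104). These 6 calls became 0 without telencephalic whole replicate 1 and 2 without telencephalic whole replicate 2 or sorted replicate 1.

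Of the glutamate receptor and postsynaptic genes, 5 of 13 fell in hindbrain sorted cells (median -0.89) and 2 of 13 in telencephalic sorted cells (median -0.17), and the rest were not called. The telencephalic share, 15.4%, was near the 12.5% of all genes called lower there. Gria2, a sister subunit of Gria1, had 0 and 0.0367 CPM in hindbrain sorted cells, against 7.13 and 3.49 CPM in hindbrain whole tissue (-7.79 ± 0.78, adjusted p = 2.79e-05). In the telencephalic plexus Gria2 changed by -4.56 ± 0.64 (adjusted p = 0.00032). Gria4 fell in both regions too, by -2.36 ± 0.62 in the hindbrain (adjusted p = 0.0167) and by -2.95 ± 0.77 in the telencephalic plexus (adjusted p = 0.0164). The hindbrain count of 5 was 2 without either hindbrain whole replicate and 3 without either telencephalic whole replicate, and the telencephalic count of 2 was 1 without any 1 of the 4 telencephalic libraries. Among 7 transmitter-identity genes tested, the glutamate transporter gene Slc17a6 was the 1 that fell in hindbrain sorted cells (-6.57 ± 0.97, adjusted p = 0.000582). That share, 14.3%, was near the 11.9% of all genes called lower there. In telencephalic sorted cells Slc17a6 fell by -3.4 ± 1.06 (adjusted p = 0.0361) together with Slc17a8 (-1.2 ± 0.29, adjusted p = 0.0103). Those 2 calls became 1 without hindbrain whole replicate 1 or telencephalic whole replicate 1, and 0 without telencephalic whole replicate 2 or sorted replicate 1.

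Of 10 tested genes of the reelin pathway and Cajal-Retzius cells, 4 fell and 6 were not called in the hindbrain plexus (median -0.66). The shares called were 40% in the hindbrain and 30% in the telencephalic plexus, against 22.1% and 22.4% of all genes. In the telencephalic plexus 2 fell, 1 rose and 7 were not called (median -0.51), and the 3 calls became 1 without telencephalic whole replicate 1. Ebf3, a transcription factor of Cajal-Retzius cells, had 1.13 and 1.8 CPM in hindbrain sorted cells, against 20 and 19.2 CPM in hindbrain whole tissue (-3.74 ± 0.28, adjusted p = 2.85e-06). In telencephalic sorted cells Ebf3 had 0.113 and 0.31 CPM, against 8.93 and 9.33 CPM in telencephalic whole tissue (-5.54 ± 0.4, adjusted p = 1.33e-06). Not all genes of the list followed Ebf3. Trp73 was not called in the hindbrain (0.14 ± 0.17) or the telencephalic plexus (0.4 ± 0.17). Ndnf was not called either (0.4 ± 0.32 and 0.57 ± 0.36). Calb2, Lhx1 and Lhx5 had too few counts to be tested. The reelin receptor genes moved little: Lrp8 changed by -0.73 ± 0.13 in the hindbrain (adjusted p = 0.00212) and by -0.65 ± 0.13 in the telencephalic plexus (adjusted p = 0.00428). The other receptor gene, Vldlr, rose by 0.39 ± 0.13 in the telencephalic plexus (adjusted p = 0.0451), with 413 and 470 CPM in telencephalic sorted cells against 351 and 323 CPM in telencephalic whole tissue.

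Neuronal transcription factors fell for 10 of 14 tested genes in the hindbrain plexus (median -3.99) and for 5 of 14 in the telencephalic plexus (median -1.98, or -1.32 with genes at 0 in a group held at their bound). Sox11, a factor of newborn neurons, fell by 1.46 ± 0.22 (adjusted p = 0.000578) in the hindbrain and by 2.23 ± 0.23 (adjusted p = 2.85e-05) in the telencephalic plexus. Neurod1, a neurogenic factor, had 0 and 0.11 CPM in hindbrain sorted cells, against 12.6 and 1.98 CPM in hindbrain whole tissue (-6.91 ± 1.12, adjusted p = 0.00141). Its whole-tissue replicates differed widely, and the same split was seen for Eomes (10.8 and 1.84 CPM), Pax6 (10.6 and 2.88 CPM) and Tubb3. The hindbrain count of 10 became 3 without hindbrain whole replicate 1. The telencephalic count of 5 became 2 without either telencephalic whole replicate, 1 without telencephalic sorted replicate 1 and 3 without sorted replicate 2. In the test of the difference between regions, 0 of the 76 genes were called by edgeR and 0 by DESeq2, with 12 at an unadjusted p below 0.05.

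**Figure D4:**
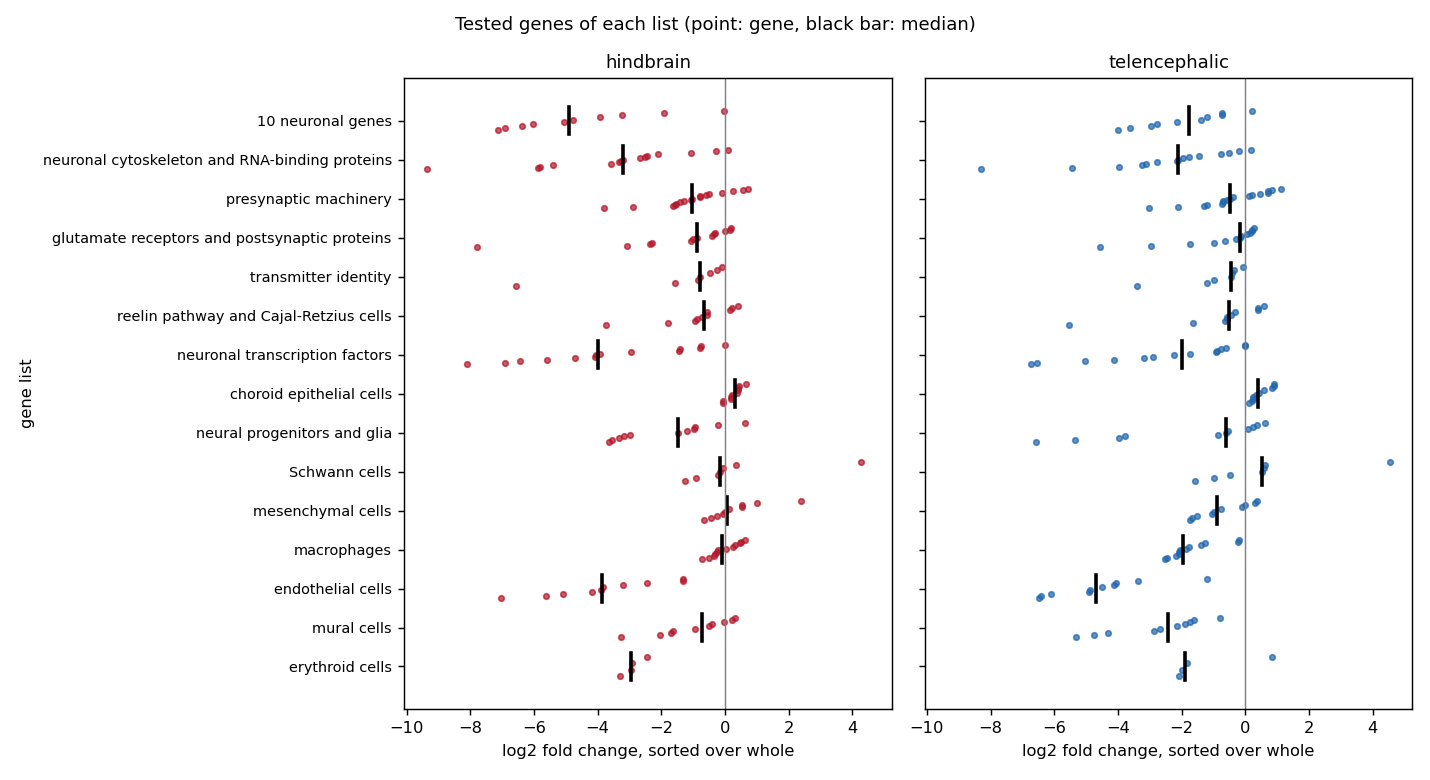
Log2 fold change of sorted cells over whole tissue for each tested gene (points) of the 10 neuronal genes, of 6 other neuronal lists and of 8 cell type marker lists, in the hindbrain and the telencephalic plexus; black bars are list medians. The 10 genes have medians of -4.91 and -1.77, choroid epithelial markers lie near or right of 0, and endothelial markers lie left of 0 in both regions.

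Regional calls in these lists were fewer. In whole tissue 11 of the 76 (14.5%, against 5.79% of all genes) were called, among them Dpysl3, a growth-cone protein, at 1.48 ± 0.28 (adjusted p = 0.00705) and Tubb2b at 1.49 ± 0.29 (adjusted p = 0.00815), both higher in the hindbrain. Gria3, a further subunit of the same receptors as Gria1, was lower there (-0.67 ± 0.17, adjusted p = 0.0431). Of 17 presynaptic genes 0 were called in edgeR and 0 in DESeq2, with 2 at an unadjusted p below 0.05. In sorted cells 12 of the 76 were called, a share of 15.8% that is near the 15.2% of all genes, with Gria3 (-0.77 ± 0.17, adjusted p = 0.00999) lower again in the hindbrain and Tubb2b higher (2.11 ± 0.38, adjusted p = 0.00225). The 3 cytoskeletal calls in whole tissue, and likewise the 3 transcription factor calls, became 0 without hindbrain whole replicate 1 or either telencephalic whole replicate, and 5 without either hindbrain sorted replicate. The 3 cytoskeletal calls in sorted cells became 1 without either telencephalic whole replicate, hindbrain sorted replicate 1 or telencephalic sorted replicate 2.

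Markers of other cell types moved with some of these comparisons. Of all genes tested, 11.9% were called lower with sorting in the hindbrain and 12.5% in the telencephalic plexus. All 10 endothelial markers fell in sorted cells of both regions, with sums of 160 to 162 CPM in hindbrain sorted cells and 690 to 741 CPM in hindbrain whole tissue. In the telencephalic plexus the endothelial sums were 115 to 124 CPM in sorted cells and 678 to 693 CPM in whole tissue. Of 11 tested neural progenitor and glial markers, 7 fell in the hindbrain and 5 in the telencephalic plexus. Their sums were 81 to 91.5 CPM in hindbrain sorted cells and 179 to 198 CPM in hindbrain whole tissue, and 99.2 to 103 CPM in telencephalic sorted cells and 154 to 183 CPM in telencephalic whole tissue. Among them Nes, an intermediate filament of neural progenitors, changed by -3.34 ± 0.22 in the hindbrain (adjusted p = 6.57e-07) and by -3.96 ± 0.24 in the telencephalic plexus (adjusted p = 3.11e-07). Other markers of the list did not follow Nes, and 1 of the 11 in the hindbrain and 4 in the telencephalic plexus were above 0. Neither Sox2 (-0.22 ± 0.23 and 0.07 ± 0.23 in those regions) nor Aldh1l1 (0.61 ± 0.28 and 0.62 ± 0.32) was called. Mural markers fell for 5 of 10 in the hindbrain and 9 of 10 in the telencephalic plexus, and macrophage markers for 2 of 12 and 10 of 12 in those regions. The hindbrain macrophage share was near that of all genes, with a list median of -0.09. Of 10 tested mesenchymal markers, 2 rose in the hindbrain and 5 fell in the telencephalic plexus. In the difference between regions of the change with sorting, 5 mural, 3 macrophage, 2 endothelial and 1 mesenchymal markers were called above 0. Their sign was opposite to that of Reln, Gria1 and Nefl. Of the 11 neural progenitor and glial markers, 1 was called below 0, the sign of those 3 genes. Over all genes tested, 1.1% were called above 0 and 0.242% below 0. Of 4 tested erythroid markers, 4 fell in the hindbrain and 2 in the telencephalic plexus. The globin genes of that list, Hba-a1, Hba-a2, Hbb-b1 and Hbb-b2, had 0 counts in every library and were not tested. The part of these cell types in the values of the 10 neuronal genes was not tested.

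The sorted cells of the 2 regions also differed in other markers. Of all genes tested, 9.06% were called higher in the hindbrain in that comparison. All 12 macrophage markers were higher in hindbrain than in telencephalic sorted cells, with sums of 189 to 234 CPM in hindbrain and 38.9 to 64.3 CPM in telencephalic sorted cells. The sums in whole tissue were 231 to 233 CPM in the hindbrain and 170 to 189 CPM in the telencephalic plexus. Of 10 mural markers 8 were higher in hindbrain sorted cells, with sums of 265 to 295 CPM in hindbrain and 69.7 to 76.7 CPM in telencephalic sorted cells. Of 10 tested mesenchymal markers 8 were higher in hindbrain sorted cells, with sums of 1890 to 2260 CPM in hindbrain and 1460 to 1630 CPM in telencephalic sorted cells. These markers were higher in the hindbrain sorted cells in which Reln, Nefm, Nefl and Snap25 were lower, and their part in those results was not tested. The Schwann cell markers summed to 119 to 137 CPM in hindbrain sorted cells, 29.1 to 33.1 CPM in telencephalic sorted cells, 174 to 241 CPM in hindbrain whole tissue and 29.9 to 32.9 CPM in telencephalic whole tissue. Most of the hindbrain sum was Ngfr, at 90.9 and 106 CPM in hindbrain sorted cells, against 148 and 218 CPM in hindbrain whole tissue. The defining Schwann factor Sox10 was at 0 in all sorted libraries and in telencephalic whole tissue and at 0.121 and 0.0944 CPM in hindbrain whole tissue, and Foxd3 was at 0 in every library.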

How the data were processed

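RNA sequencing of E18.5 mouse choroid plexus gave 8 libraries in 4 groups of 2, grouped by their titles. Per the labels' protocols, paired-end TruSeq v2 libraries were made from RNA pre-amplified with the Ovation system. Build mm9, HTSeq, TopHat2 2.0.4, Bowtie2 2.0.5, CASAVA 1.8.2 and DESeq 1 are named in the submitters' processing notes; no source used here gives the annotation or the strand setting. The authors deposited raw counts per gene symbol, without molecular identifiers. Whether embryos were pooled is not stated, so p-values measure the spread between these samples.

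The fit used edgeR 4.0.16 (R 4.3.3): filterByExpr (minimum count 10, total 15), TMM scaling, 4 group means on all 8 libraries and quasi-likelihood tests of 5 contrasts, Benjamini-Hochberg adjusted over 15698 genes. Called means an adjusted p below 0.05. CPM and ratio intervals (95%, Clopper-Pearson) use TMM-scaled totals. Alternatives were library totals or DESeq2 size factors as the scale, Ttr and Rn45s left out of scaling, no filter, DESeq2 1.42.0, fitting only the 4 libraries compared, brain as a replicate block and leaving out each library. The design text states that both regions come from the same brains; same-numbered libraries deviated together, with correlations of 0.193 in whole tissue and 0.145 in sorted cells. Replicates differed beyond sampling noise (chi-square per degree of freedom 5.16 to 61.1). The fit was also run on simulated data, with changes set in more abundant genes of hindbrain whole tissue alone. That setting does not cover the low counts of sorted cells, so nothing is drawn from it here.

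The members and gene lists were chosen with earlier results of these data known. All 188 list genes were found, 3 under older symbols (Map2 as Mtap2, Map1b as Mtap1b, Ndnf as A930038C07Rik). Named from each list were up to 3 called genes by adjusted p in each comparison, or, with under 2 calls, the 2 most abundant, and for each of the 10 genes the 3 closest in pattern. A listed gene that this rule would name is not reported here. Pax6, Nes, Ngfr, Sox2, Aldh1l1, Trp73, Ndnf, Calb2, Lhx1 and Lhx5 were named after their values were seen.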

Additional observations from a re-analysis of the deposited data

Results flagged for a closer look

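The change of 3 genes with sorting differed between the hindbrain and the telencephalic plexus by a test of the difference itself, the interaction in edgeR's quasi-likelihood fit. Gria1 differed by -5.76 on the log2 scale, Nefl by -4.33 and Reln by -3.22. All 3 fell in hindbrain sorted cells, and none of the 3 was called in telencephalic sorted cells (adjusted p = 0.186, 0.389 and 0.102). Gria1 and Nefl rest on 4 and 9 counts in the hindbrain sorted libraries together, against 106 counts for Reln. In the telencephalic whole-tissue libraries together Gria1 and Nefl had 30 and 41 counts, against 164 counts for Reln. The filter on low counts favoured low values of Gria1 and Nefl in hindbrain sorted cells.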

How the results depend on the processing

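Of 720 recomputed log2 fold changes of the 10 genes, 635 kept their direction and their side of the threshold, 26 gained a call, 47 lost a call and 12 changed sign. None of the 12 was a called result. With library totals as the scale, Astn1 between regions in sorted cells was 0.05 and Syt1 in telencephalic sorted cells against whole tissue was -0.1; in DESeq2 that comparison of Astn1 gave 0. Without single libraries, the change of Syt1 with sorting in the hindbrain ranged from -0.12 to 0.06. Between regions in sorted cells, Stmn2 ranged from -1.99 to 0.26, Tubb3 from -4.85 to 4.73 and Astn1 from -2.16 to 4.8. In the difference between regions of the change with sorting, Tubb3 ranged from -5.69 to 3.87 and Astn1 from -4.4 to 2.56. Library totals shifted the median of all genes by 0.2 between regions in sorted cells, by -0.3 and -0.19 with sorting in the telencephalic and hindbrain plexus, and by 0.12 in the interaction.

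For the interaction, 211 genes and 3 of the 10 were called; the counts were 441 and 6 with no filter on low counts, 335 and 6 in DESeq2, and 337 and 5 with brain as a replicate block. The block changed no other call of the 10 genes beyond those given above for Nefl, Gria1, Stmn2 and Dcx. With only the 4 libraries of the comparison, 1581 genes (against 909) were called between regions in whole tissue, 1491 (against 2383) between regions in sorted cells, where 2 of the 10 were called, and 2185 (against 3472) with sorting in the hindbrain. Leaving out each library gave 322 to 1346 genes and 2 to 7 of the 10 between regions in whole tissue, 1048 to 3218 and 2 to 5 in sorted cells, 1536 to 4518 with sorting in the telencephalic plexus, 1722 to 3836 in the hindbrain, and 58 to 456 and 1 to 4 in the interaction. In such fits the lone library of a group is assumed to vary like the other groups. Fits that leave out libraries have fewer samples, and the causes of the changed counts were not tested. Of 432 recomputed counts of called list genes, 330 stayed within 1.5 times. Of 60 list medians, 4 changed when genes at 0 in a group were held at their bound. Low counts limit Stmn2, Gria1, Snap25, Tubb3, Astn1 and, in the hindbrain, Nefl in sorted cells.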
